A study of Mus musculus with 5 samples.

Results

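The proximal tubule of the kidney takes filtered protein out of the urine by endocytosis, and 6 genes of this uptake route were followed over 5 mouse arrays: Lrp2, Cubn, Amn, Dab2, Clcn5 and Ocrl. They were chosen with earlier results of these data known and were matched by gene symbol. All 6 were found among the 24563 genes on the array, with 14 probes between them. The samples were C57BL/6 mouse tissues with 1 one-colour array per group: kidney from E13.5 embryos, kidney from newborn (P0) mice, kidney from adults aged 8 weeks, and tissue collected 2 weeks or 4 weeks after a kidney bud was transplanted. No other allele, genotype or agent is named for any group. The cells that made up the bud, the host and the site of the graft are not given in any source used here, nor is the number of animals behind each RNA. With 1 array per group there was no replicate check of any difference and no p-value could be given, so the values describe the 5 arrays themselves.

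Megalin, encoded by Lrp2, is a giant member of the LDL receptor family at the apical membrane of the proximal tubule cell, where it binds albumin, vitamin carrier proteins and many other filtered ligands. Cubilin, encoded by Cubn, is a large receptor without a membrane span of its own, and amnionless, encoded by Amn, anchors it and carries it to the cell surface. Dab2 is an adaptor that ties the tails of these receptors to clathrin, Clcn5 encodes the endosomal chloride and proton exchanger ClC-5, and Ocrl encodes an inositol phosphatase that acts on endosomal membranes. Loss of CLCN5 or OCRL in people causes Dent disease or Lowe syndrome, both with protein lost into the urine.

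All 6 genes were well above background on all 5 arrays, through at least 1 probe each. Levels below are log2 of the scanner's processed signal over the 75th percentile of the gene spots on that array, so 0 is the 75th percentile itself. The error given with a level or a difference is the scanner software's own estimate in log2 units, which covers the spot and the scan but not labelling, animals or slide. For the probes used it was nearly constant, from 0.14 to 0.19 a level, and above the spread of replicate spots (median SD 0.0517 to 0.06). A difference of more than 2 errors is therefore close to a fixed cut. A level was not set against that of another gene, since probes differ in brightness. Gene spots that were well above background made up from 60.9% (8-week kidney) to 69.1% (2-week transplant) of an array, no spot was saturated, and the E13.5 kidney and 2-week transplant shared slide 1 while the other 3 arrays shared slide 2. Where 2 arrays from different slides are compared, a slide effect and a group effect cannot be told apart. All tissues are mixtures, so fewer cells of a type and less RNA per cell cannot be told apart in any of these values.

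The 3 receptor genes followed one course, so the bases just before their start sites are shown first. These are the 250 bases before the RefSeq start on GRCm38.p6, with capitals marking matches to 5 short motifs searched on both strands: GTTAAT from the HNF1 element, CAAAGT from the HNF4 element, the E-box CACGTG, the GC box GGGCGG and, from the core promoter, TATAAA. The matches did not overlap one another.
Lrp2, chr2:69586030-69586279, minus strand: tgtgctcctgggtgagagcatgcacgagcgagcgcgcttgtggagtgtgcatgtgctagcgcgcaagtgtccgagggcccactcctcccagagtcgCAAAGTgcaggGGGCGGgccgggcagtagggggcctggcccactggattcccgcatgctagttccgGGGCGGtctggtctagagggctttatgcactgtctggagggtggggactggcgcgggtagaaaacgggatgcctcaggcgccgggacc
Cubn, chr2:13491877-13492126, minus strand: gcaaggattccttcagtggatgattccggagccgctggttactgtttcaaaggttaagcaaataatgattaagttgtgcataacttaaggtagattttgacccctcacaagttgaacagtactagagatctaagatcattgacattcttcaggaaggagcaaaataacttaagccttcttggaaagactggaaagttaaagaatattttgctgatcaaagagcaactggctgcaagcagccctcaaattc
Amn, chr12:111270846-111271095, plus strand: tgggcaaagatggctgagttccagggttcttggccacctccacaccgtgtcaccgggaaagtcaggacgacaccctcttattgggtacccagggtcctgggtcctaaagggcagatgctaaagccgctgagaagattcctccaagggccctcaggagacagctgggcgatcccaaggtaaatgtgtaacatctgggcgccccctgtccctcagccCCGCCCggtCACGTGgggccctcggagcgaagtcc

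The Lrp2 window held CAAAGT 154 bases before the start and GGGCGG at 143 and 88 bases before it, each counted to the first base of the match. The Amn window held CACGTG at 26 bases and CCGCCC, the GC box on the other strand, at 35 bases before the start. The Cubn window held none of the 5 motifs and was AT-rich, with a GC content of 39.6% against 66.4% for Lrp2, 61.2% for Amn and a median of 52.4% over all promoters. Among the 8 RefSeq promoters of the 6 genes, CAAAGT was in 4 (those of Lrp2 and Ocrl, and 1 each of Dab2 and Clcn5), where 12.6% of 32851 promoters of the same length hold it. GGGCGG was in 4 against 32.7%, and GTTAAT (a Dab2 promoter), CACGTG (Amn) and TATAAA (a Clcn5 promoter) were each in 1, against 6.43%, 6.02% and 12.4%. No motif of the 5 was in all 3 receptor windows.

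Lrp2 gave a processed signal of 225 on the E13.5 kidney, 10225 on the P0 kidney, 58162 on the 8-week kidney, 933 on the 2-week transplant and 538 on the 4-week transplant. Its levels were -2.84, 2.57, 5.64, -0.88 and -1.48 in the same order, with errors of 0.14 to 0.15. Both transplants therefore lay between the embryonic and the newborn kidney in the main setting. With normexp background correction the 4-week transplant was instead below E13.5 for Lrp2 (-0.33), Cubn (-1.37) and Amn (-0.93). The same held for Cubn in the 2-week transplant (-1.11). Set against the 8-week kidney as 100%, the P0 kidney held 12.0% of the scaled Lrp2 signal, the 2-week transplant 1.10%, the 4-week one 0.72% and the E13.5 kidney 0.28%. Each neighbour in that order differed by more than 2 combined errors.

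Cubn had levels of -4.61 (E13.5), 0.77 (P0), 4.42 (8 weeks), -2.61 (2-week transplant) and -3.01 (4-week transplant). Its order was that of Lrp2, but the 2 transplants differed by 0.40 with an error of 0.21, which is within 2 errors. The P0 kidney held 8.01% of the 8-week signal, the transplants 0.767% and 0.582%, and the E13.5 kidney 0.191%.

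Amn, whose product Cubn needs to reach the membrane, had levels of -4.56, 2.27, 4.60, -1.34 and -2.49 in the order E13.5, P0, 8 weeks, 2-week and 4-week transplant. It was 114-fold higher at P0 than at E13.5 (log2 6.83, error 0.24; 3.50 with normexp background correction) and another 5.03-fold higher at 8 weeks. More of its postnatal level was thus present at birth than for its partner: 19.9% of the 8-week value. The 2-week transplant held 1.63% and the 4-week transplant 0.733%, and all neighbours in the order were more than 2 errors apart.

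Dab2 differed from the receptors in where the transplants lay. Its levels were 0.22 (E13.5), 1.31 (P0), 3.28 (8 weeks), 2.04 (2-week transplant) and 1.84 (4-week transplant). Both transplants were above the newborn kidney, at 42.5% and 37.0% of the 8-week signal against 25.6% at P0 and 12.0% at E13.5. That order rests on the brighter of its 2 probes: with the mean over both, the transplants were below P0 (-1.45 at each time), as the dim probe was above background at P0 only. The transplants did not differ from each other beyond 2 errors.

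Clcn5 spanned 5.57-fold over the 5 arrays, with levels of -1.35, -0.34, 1.12, -1.19 and -1.02 in the same order. The 8-week kidney was highest and the P0 kidney next, at 36.2% of it. The 2 transplants and the E13.5 kidney, at 22.7% (4 weeks), 20.1% (2 weeks) and 17.9%, formed a run whose neighbours lay within 2 errors of each other.

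Ocrl was nearly level. It had levels of 1.84 (E13.5), 1.72 (P0), 1.30 (8 weeks), 1.61 (2-week transplant) and 1.76 (4-week transplant), a 1.46-fold span, and no neighbours in its order differed by more than 2 errors. Across that order, the 8-week kidney was below E13.5 (-0.54) and P0 (-0.43) by more than 2 errors. The 4-week transplant was likewise above the 8-week kidney (0.46), each of these under 2-fold. Ocrl was the one gene of the 6 that was lowest in the adult kidney, though its small difference between the 8-week and P0 kidneys was -0.43 here, -0.96 in the authors' deposited table and 0.10 with the mean over its probes. The spans of Lrp2, Cubn and Amn were 357-fold, 522-fold and 572-fold, and that of Dab2 8.36-fold.

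**Figure D1:**
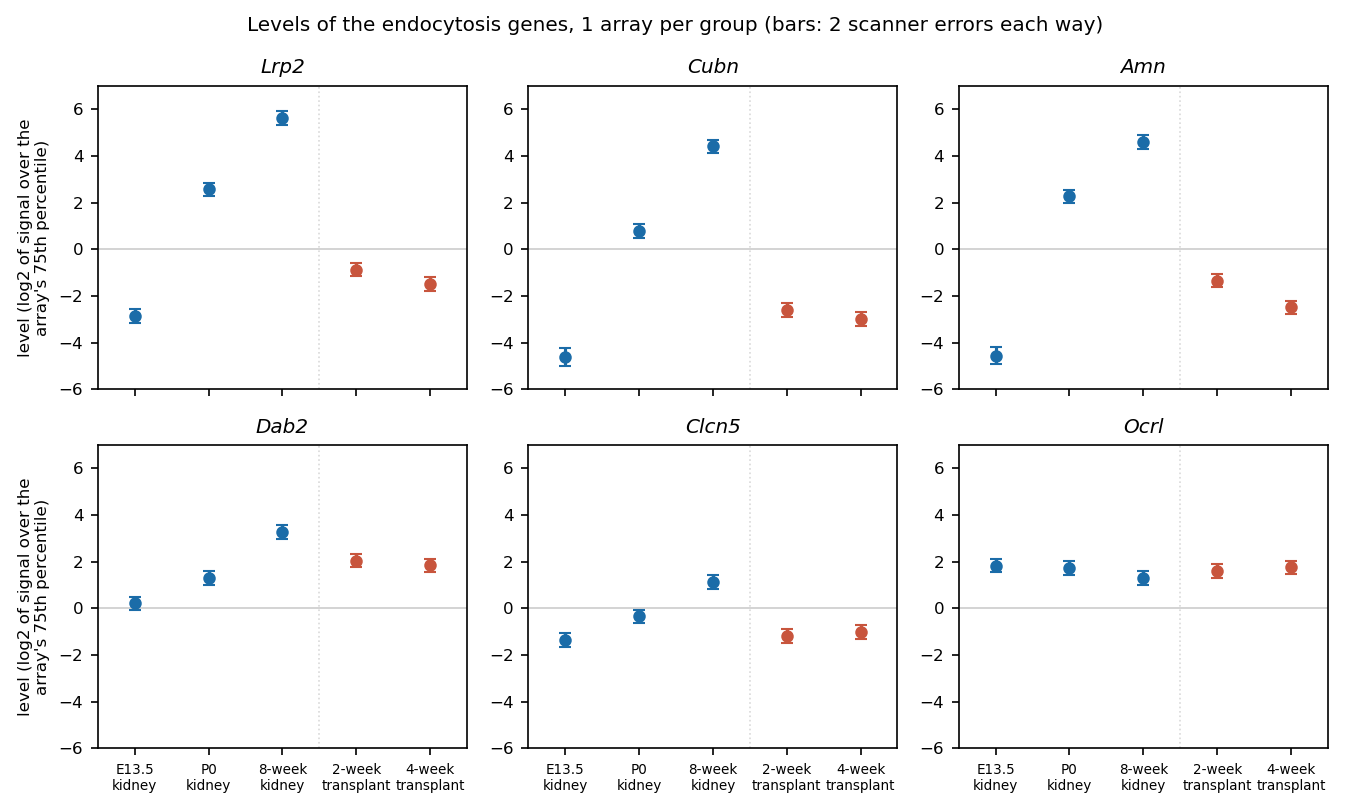
Level of each gene on each array (y axis, log2 of the signal over the array's 75th percentile, same scale in all 6 panels) for the 3 kidneys (blue) and 2 transplants (red); points are single arrays and bars are 2 scanner errors each way. Lrp2, Cubn and Amn run from their lowest point at E13.5 to their highest at 8 weeks (Lrp2 -2.84 to 5.64) with both transplants below P0, while Dab2 in the transplants (2.04 and 1.84) lies above P0 (1.31) and Ocrl stays between 1.30 and 1.84.

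The kidneys were compared first, with E13.5 on slide 1 and P0 and 8 weeks on slide 2. From E13.5 to P0, 5 of the 6 passed 2-fold upwards and 0 downwards, where 13.9% of 17572 genes compared were higher and 11.9% lower by that fold. Lrp2 was 42.7-fold higher (log2 5.42, error 0.21) and Cubn 41.8-fold (log2 5.39, error 0.24), both above the 99.2nd percentile of all differences. With low E13.5 signals these sizes moved with the setting, down to 3.09 for Lrp2 with the mean over its probes and 2.04 for Cubn with normexp, both still past 2-fold. Dab2 at 2.14-fold and Clcn5 at 2.02-fold were just past 2-fold, and Clcn5 was under it with 5 of 8 other settings of background, scaling, source, probe and filter. Ocrl differed by -0.12.

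From P0 to 8 weeks, arrays that shared a slide, 5 of 6 were again at least 2-fold higher and 0 lower, against 23.6% and 21% of 17657 genes. Cubn was 12.5-fold higher (log2 3.64), Lrp2 8.36-fold (log2 3.06), Amn 5.03-fold (log2 2.33), Dab2 3.91-fold (log2 1.97) and Clcn5 2.76-fold (log2 1.47), each with an error of 0.20. Dab2 came to 0.36 with the mean over its probes and Clcn5 to 0.88 in the authors' deposited table, both under 2-fold. Over the whole span from E13.5 to 8 weeks, the count was 5 higher and 0 lower against 27.3% and 27.3% of 17636 genes. These 3 comparisons share arrays with each other and with those below, so their counts are not separate pieces of evidence.

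Against the E13.5 kidney, the 2-week transplant, from the same slide, was at least 2-fold higher in 4 of 6 genes and lower in 0, where 21.4% of 18264 genes were higher and 20.3% lower. Amn was 9.31-fold higher (log2 3.22), Cubn 4.01-fold (2.00), Lrp2 3.91-fold (1.97) and Dab2 3.55-fold (1.83), with errors of 0.20 to 0.24. Clcn5 (0.16) and Ocrl (-0.23) lay near 0. The 4-week transplant gave 4 higher and 0 lower, against 24.4% and 21.8% of 18320 genes, with Amn at 4.19-fold, Dab2 at 3.09-fold, Cubn at 3.04-fold and Lrp2 at 2.57-fold. These receptor differences rest on low E13.5 signals, and normexp background correction turned Cubn to -1.11 at 2 weeks and Lrp2, Cubn and Amn to -0.33, -1.37 and -0.93 at 4 weeks. It also brought Lrp2 (0.22) and Amn (0.04) under 2-fold at 2 weeks, which left 1 of 6 genes higher at each time. With the mean over probes 2 of 6 were higher at 2 weeks and 1 of 6 at 4 weeks. The normexp correction estimated a mean background of -992 for the E13.5 array, where the other arrays had 20.7 to 27.5. With background taken from negative control spots, Lrp2, Cubn, Amn and Dab2 were higher than E13.5 at both times, and Cubn lay at 1.28 and 1.00.

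Against the newborn kidney the 6 genes split into receptors and the rest. In the 2-week transplant, 3 of 6 were at least 2-fold lower and 0 higher, against 11.8% lower and 15.4% higher among 18322 genes. Amn was 12.2-fold lower (log2 -3.61), Lrp2 10.9-fold (-3.45) and Cubn 10.4-fold (-3.38), each below the 1st percentile of all differences. Dab2 (0.73), Clcn5 (-0.85) and Ocrl (-0.11) were within 2-fold. In the 4-week transplant, on the slide of the P0 kidney, 3 of 6 were again lower and 0 higher, against 13.9% and 19.2% of 18445 genes. Amn was 27.2-fold lower (-4.76), Lrp2 16.6-fold (-4.05) and Cubn 13.7-fold (-3.78), with errors of 0.20 to 0.21. Dab2 (0.53), Clcn5 (-0.67) and Ocrl (0.03) were within 2-fold, so on the probes used none of these 3 reached the receptors' deficit. Clcn5 was nevertheless lower than P0 in both transplants by more than 2 errors (0.20), and with scaling on the array median it passed 2-fold at 2 weeks (-1.11). A second Clcn5 probe was 2.00-fold lower than P0 at 4 weeks. The direction of Dab2 here depends on the probe rule, as given with its levels.

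Against the 8-week kidney, each transplant had 5 of 6 genes past 2-fold downwards and 0 upwards. The background for the 2-week transplant was 22.5% lower and 21.7% higher of 18327 genes, and for the 4-week transplant 18.6% and 22.3% of 18309. At 4 weeks, with both arrays on slide 2, Cubn was 172-fold lower (-7.42), Lrp2 139-fold (-7.12), Amn 137-fold (-7.09), Clcn5 4.40-fold (-2.14) and Dab2 2.70-fold (-1.44). At 2 weeks the same 5 genes were 130-fold, 91.3-fold, 61.4-fold, 4.98-fold and 2.35-fold lower, though Dab2 was at -0.69, under 2-fold, in the authors' deposited table. Ocrl was the exception, at 0.31 and 0.46.

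Between the transplants, Amn alone passed 2-fold, being 2.22-fold lower at 4 than at 2 weeks (-1.15, error 0.21). That is 1 lower and 0 higher of 6, against 5.68% and 9.1% of 18493 genes, and with background taken from the negative controls or by normexp, Amn lay just under 2-fold (-0.99 and -0.97), so that the count was 0. Lrp2 (-0.60) and Cubn (-0.40) were on the same side, and Dab2 (-0.20), Clcn5 (0.18) and Ocrl (0.14) nearer 0. The median difference of the 6 genes was -0.30, against 0.00 over all genes compared.

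Of the 14 probes, those not chosen to stand for their gene were mostly dim. A second Cubn probe on the same transcript was above background at P0 (signal 97.8) and at 8 weeks (905), a 13.6-fold difference, and not well above background on the other 3 arrays. A second Lrp2 probe, for ENSMUST00000100051, gave 168 at P0 and 887 at 8 weeks, 7.75-fold apart, and in the transplants was at least 5.62-fold (2 weeks) and 6.23-fold (4 weeks) lower than at P0. A further Lrp2 probe, for ENSMUST00000092551, was above background at 8 weeks only. These dim probes placed the adult kidney highest, as the brighter ones did. "At least" here sets the bright array against the lowest signal that counted as above background on the dim array, or the dim probe's own value if higher.

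The 2 Clcn5 probes for NM_016691 ran in parallel, with signals of 2550 and 2360 at 8 weeks and 633 and 556 at E13.5. The remaining one, designed to an assembled transcript TC1641527, had levels of -2.94 (E13.5), -3.46 (P0), -2.04 (8 weeks), -3.63 (2-week transplant) and -3.35 (4-week transplant) and was not higher at P0 than at E13.5. The 2 Ocrl probes for NM_177215 also ran in parallel, with differences between 8 weeks and P0 of -0.43 and -0.38. Another Ocrl probe was above background in the 2-week transplant only (signal 73.9). The second Dab2 probe, for ENSMUST00000063320, was above background only at P0 (signal 63.0) and so differed from the main Dab2 probe in which array was highest.

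**Figure D2:**
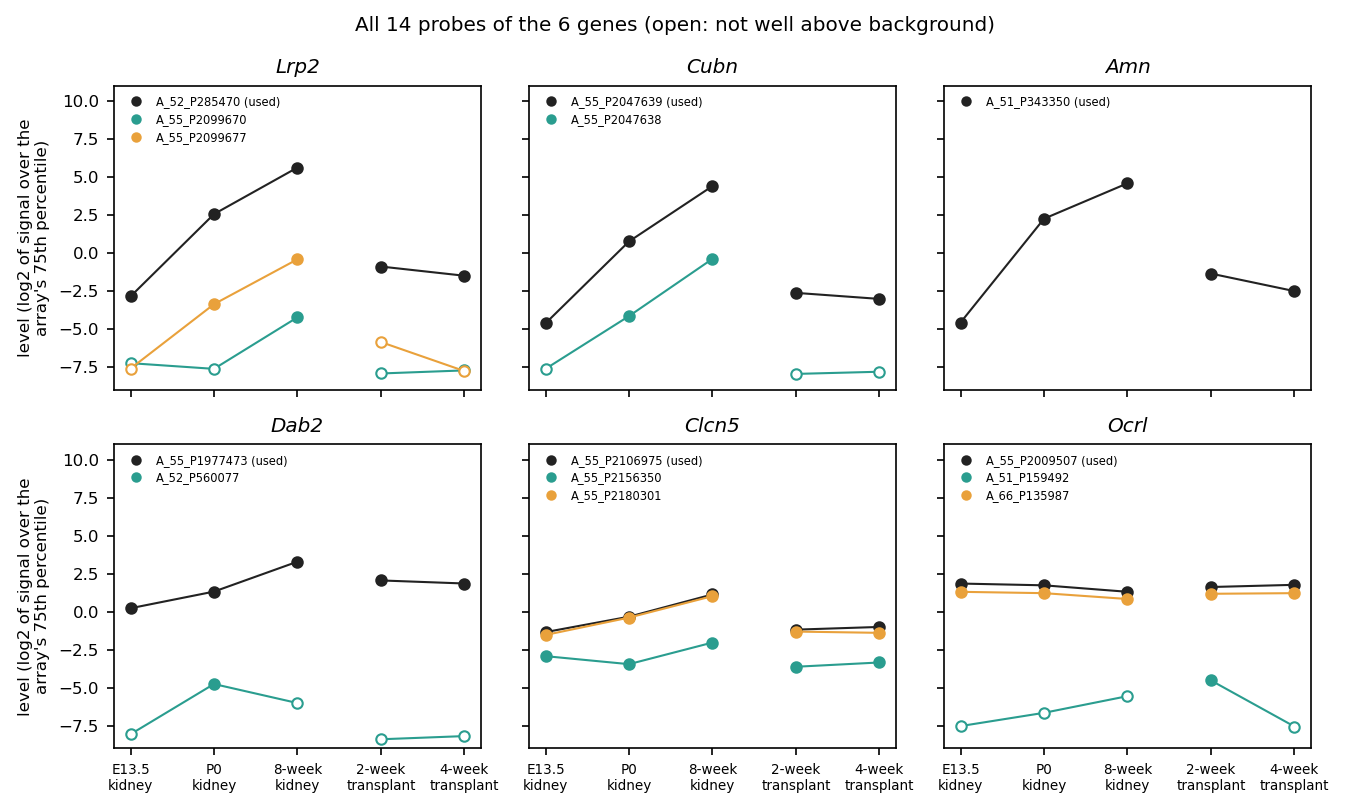
Level of each of the 14 probes (y axis, log2 of the signal over the array's 75th percentile) on the 3 kidneys and 2 transplants; 1 colour per probe, open points where the probe was not well above background, and lines joining kidneys and transplants separately. The probes used for Lrp2, Cubn and Amn are filled on all arrays, the second Cubn probe is filled only at P0 (-4.14) and 8 weeks (-0.37), and the 2 upper probes of Clcn5 and of Ocrl run in parallel.

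The rest of the uptake route was followed in 10 lists of genes, each described by its count past 2-fold and its median difference, to be read against the shares of all genes given above. The partners and adaptors of the receptors came first: Lrpap1 encodes the chaperone that folds megalin, Myo6 the motor that moves coated pits inward, Fcgrt the receptor that spares albumin, and Folr1 a folate receptor taken up with megalin. From E13.5 to P0, 4 of 8 measured partners passed 2-fold upwards and 0 downwards (median 1.13): Folr1 (5.87), Fcgrt (2.02), Lrpap1 (1.58) and Myo6 (1.46). The same 4 were higher again from P0 to 8 weeks, at 2.60, 2.42, 2.42 and 1.76. In the 4-week transplant, however, Lrpap1 (-0.32), Myo6 (-0.76) and Folr1 (0.06) lay within 2-fold of P0 and Fcgrt was 2.30-fold higher. Of 8 partners, 1 was higher and 0 lower (0 to 1 and 0 to 2 under the other settings), where the receptors themselves were 13.7-fold to 27.2-fold lower. At 2 weeks Folr1 was 5.10-fold lower than P0 and Fcgrt 2.77-fold higher.

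The coat and scission genes, which pinch the loaded pit from the membrane, differed little outside the adult kidney. From E13.5 to P0, 0 of 18 measured genes passed 2-fold in either direction (median 0.20), and against P0 0 of 18 did in either transplant (medians -0.05 and -0.09). From P0 to 8 weeks 6 of 19 were higher and 1 lower. Under the other settings 2 to 7 were higher and 1 to 3 lower. One of these settings, the authors' deposited table, had a median of -0.46 over all genes in that comparison, against 0.07 in the main setting. The 6 higher genes included Cltb, a clathrin light chain (2.03), and Dnajc6, an uncoating cofactor that was at least 4.72-fold higher. Hip1 was lower (-2.68). Medians this near 0 turned sign under other scalings of the transplants (range -0.31 to 0.06 at 2 weeks and -0.40 to 0.01 at 4 weeks).

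Among 22 genes of endosomal sorting and recycling, 1 was higher and 1 lower at P0 than at E13.5: Rab11a, a GTPase of recycling endosomes (1.14), and Pikfyve, a lipid kinase of endosomes (-1.42). At 8 weeks 7 were higher than at P0 and 0 lower (median 0.67; 3 to 8 and 0 to 2 under the other settings), led by Rab11fip3 (3.54), Rab38 (2.52) and Pikfyve (2.22). Rab38 is a GTPase known for a part in proximal tubule protein uptake. Against P0, the 2-week transplant had 1 higher (Pikfyve, 1.23) and the 4-week transplant 2 higher (Appl2, 1.94, and Pikfyve, 1.08) and 2 lower (Rab5c, -1.41, and Rab11a, -1.05). Appl2 and Rab5c act on early endosomes.

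Ocrl belongs to a group of inositol lipid enzymes, and its close relative Inpp5b did not share its level course. Inpp5b differed by -0.28 from E13.5 to P0, was 6.14-fold higher at 8 weeks than at P0 (2.62), and lay at -0.36 in the 4-week transplant against P0. Of 12 related enzymes, 1 was higher at P0 than E13.5 (Pip5k1a, a lipid kinase, 2.79), and 5 were higher and 0 lower at 8 weeks against P0 (median 0.82), with 1 to 6 higher and 0 to 1 lower under the other settings. Synj1, the phosphatase synaptojanin 1, was higher than P0 in both transplants (1.58 and 1.79), and Inppl1 was lower at 4 weeks (-1.14).

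ClC-5 works beside the proton pump that acidifies endosomes. Of 16 subunit and accessory genes of this V-ATPase, 3 were at least 2-fold higher at P0 than E13.5 (Atp6v0b 2.83-fold, Atp6v1a 2.71-fold and Atp6ap2 2.31-fold) and 9 at 8 weeks than P0 (median 1.12), with 0 lower in either; the 9 became 5 to 11 under the other settings. Against P0, 0 of 16 passed 2-fold in either direction in the 2-week or the 4-week transplant (medians -0.13 and 0.02, both of which turned sign under another scaling). Clcn5 itself, at -0.85 and -0.67, was lower than those medians in both transplants but within 2-fold.

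In the CLC family, the endosomal and lysosomal relatives of Clcn5 were also higher in the adult kidney. Clcn3, an endosomal exchanger, was 5.79-fold higher at 8 weeks than at P0, and Clcn7, the lysosomal one, 3.60-fold. Of 9 family genes and subunits, 7 were higher and 0 lower in that comparison, with 4 to 7 higher under the other settings. Against P0, Clcn7 was 2.62-fold higher in the 2-week transplant and within 2-fold in the 4-week one (0.67). Bsnd, which encodes the subunit barttin, was higher at P0 than E13.5 by 5.42 and was 3.46-fold lower in the 4-week transplant than at P0.

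The LDL receptor family, to which Lrp2 belongs, did not show the course of Lrp2. Of 12 relatives, 2 were higher and 1 lower at P0 than E13.5 (Vldlr 3.48-fold and Sorl1 2.08-fold higher, Lrp8 8.30-fold lower), and Lrp11 (3.04) and Lrp10 (1.15) were higher at 8 weeks than P0. Against P0, 3 were higher and 0 lower in the 2-week and 4 higher and 0 lower in the 4-week transplant, with Lrp1, a broadly expressed scavenger receptor, at 2.04 and 2.02. Lrp2 was thus lower than P0 in transplants in which 0 of 12 measured relatives were at least 2-fold lower.

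Proteins taken up by the receptors end in lysosomes. Of 15 lysosomal genes, 7 were higher and 0 lower at P0 than E13.5 (median 0.97) and 8 higher and 0 lower at 8 weeks than P0 (median 1.11). Legumain (Lgmn) and cathepsin H (Ctsh), both proteases, were higher in the first step by 2.25 and 3.15 and in the second by 1.85 and 2.20. Against P0, 7 were higher and 0 lower in the 2-week transplant (median 0.75) and 5 higher and 0 lower in the 4-week transplant (median 0.73), led by Ctsb at 1.64 and 1.67. Those counts ran from 4 to 7 and from 2 to 5 under the other settings, with 0 lower. Macrophage markers were also higher than P0 in both transplants but went different ways from P0 to 8 weeks, as given below. Their part in the lysosomal values was not tested.

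Other genes of the proximal tubule, none of them a member of the uptake route, gave the frame for the receptors. From E13.5 to P0, 24 of 24 were at least 2-fold higher (median 5.88), and from P0 to 8 weeks 23 of 24 (median 3.88), with 0 lower in either. Against P0, 16 were lower and 1 higher in the 2-week transplant (median -1.83), and 19 lower and 1 higher in the 4-week transplant (median -3.96). The most reduced at 4 weeks were Slc22a6, an organic anion transporter (-5.71), Slc34a1, the phosphate transporter (-5.61), and Pdzk1, a scaffold of apical transporters (-5.29). Those within 2-fold of P0 were Aqp1, the water channel (0.19), Slc7a8 (-0.22), Slc4a4 (-0.32) and Slc22a8 (-0.61), while Cyp2e1, which fat and liver also express, was 141-fold higher. The values of Lrp2, Cubn and Amn (-4.05, -3.78 and -4.76) lay around this list's median at 4 weeks. At 2 weeks theirs (-3.45, -3.38 and -3.61) lay below it. Of 10 general kidney epithelium genes, 6 were lower and 0 higher at 2 weeks and 5 lower and 0 higher at 4 weeks against P0, with medians of -1.20 and -0.93. Those medians are smaller in size than the receptor differences.

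**Figure D3:**
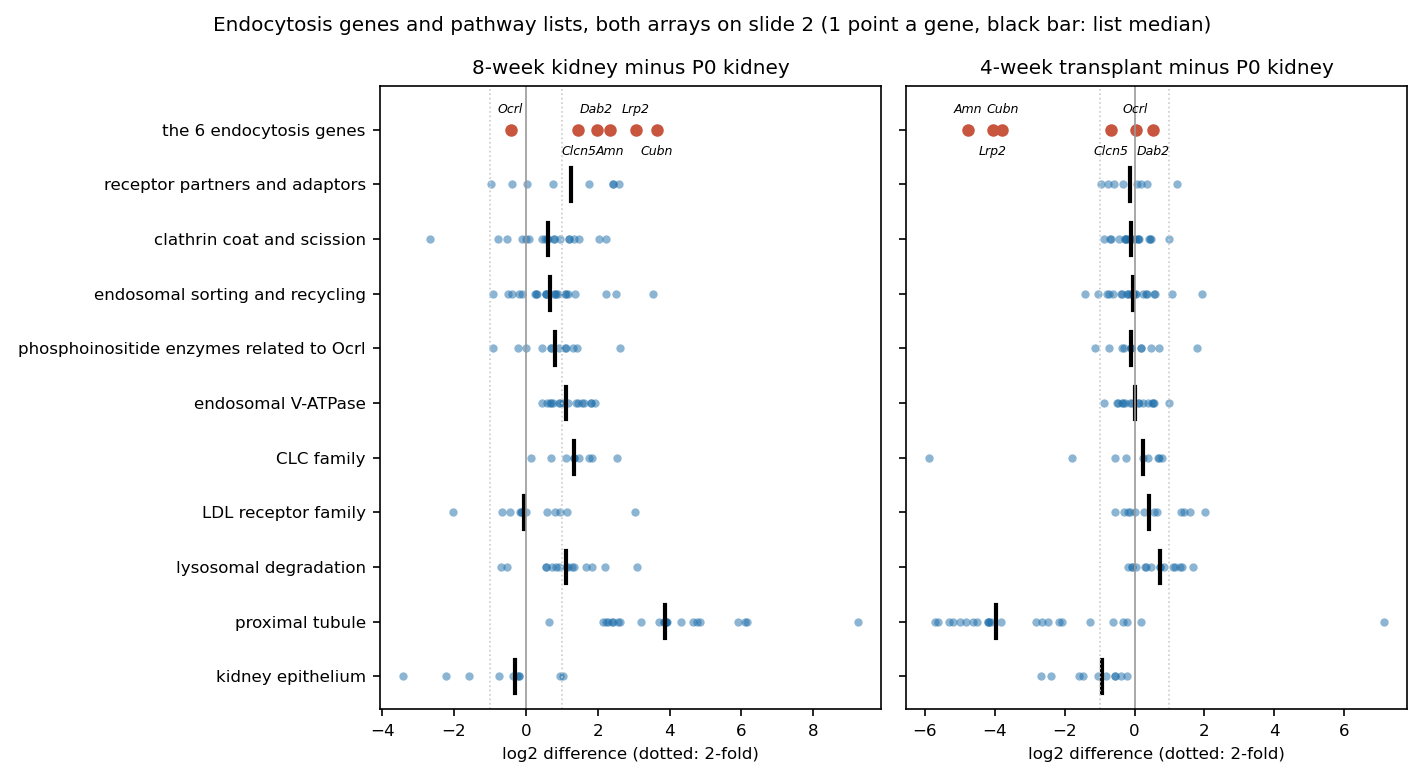
Log2 difference (x axis) of the 6 endocytosis genes (red, named) and of each gene of the 10 lists (blue, 1 point a gene; black bar, list median) for the 8-week kidney (left) and the 4-week transplant (right), each minus the P0 kidney on the same slide; dotted lines mark 2-fold. On the left most lists lie right of 0, with V-ATPase genes at a median of 1.12; on the right Lrp2, Cubn and Amn (-3.78 to -4.76) lie with the proximal tubule list (median -3.96) while coat and V-ATPase genes lie around 0.

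Receptor levels were also set beside markers of other cells that the tissue could hold. Summed over 8 macrophage markers, the scaled signal was 382% of the array's 75th percentile at E13.5, 684% at P0, 1536% at 8 weeks, 6446% in the 2-week and 4379% in the 4-week transplant. All but Cd163 were above background on every array, and all 7 measured were higher than P0 in both transplants (medians 3.70 and 3.24). From P0 to 8 weeks the single markers went different ways. Csf1r (1.55) and Cd14 (1.90) were higher, Mrc1 was lower (-2.15), and Adgre1, C1qa, Cd68 and Lyz2 lay between -0.76 and -0.25. Macrophages can express Dab2, and their part in its transplant level was not tested. Markers of endothelium, where Dab2 is also known, had 0 of 7 genes past 2-fold against P0 in either transplant (summed signal 802% to 1310% over the 5 arrays).

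Several other tissues use megalin or cubilin, among them the choroid plexus, the visceral yolk sac and the ileum. The 6 choroid plexus markers summed to 51.5% of the 75th percentile at E13.5, 1831% at P0, 10782% at 8 weeks, 437% in the 2-week and 27044% in the 4-week transplant. At 4 weeks against P0, 3 of 6 were higher and 0 lower: Ttr, the thyroxine carrier that is a megalin ligand (10.85), Kcnj13 (6.61) and Clic6 (3.12). Folr1 and Kl, which kidney also expresses, lay at 0.06 and 0.82. The part of such cells in the transplants' Lrp2 level was not tested.

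Of the yolk sac list, Afp was at least 748-fold lower at 4 weeks than at P0, and Rbp4, another megalin ligand, was 27.4-fold higher. The 6 ileal markers summed to 36.4% in the 4-week and 40.7% in the 2-week transplant against 307% at P0 and 2336% at 8 weeks. Single ileal markers went different ways at 4 weeks against P0: Vil1 (-4.26) and Slc10a2 (at least 20.4-fold lower), both also higher at 8 weeks than at P0, were lower, while Fabp2 was 8.30-fold and Fabp6 at least 2.13-fold higher. Adipocyte markers were higher than P0 in both transplants, in 8 of 8 genes, and 7 of 7 adrenal cortex markers and 5 of 6 urothelial markers were higher at 4 weeks. At 2 weeks 5 of 6 urothelial markers were instead lower than P0, with Upk1a at -3.75 and Upk3a at -3.34. Against P0, 5 of 6 podocyte markers were higher and 1 (Wt1) lower at 2 weeks, and 3 higher and 1 lower at 4 weeks. The part of these tissues in the receptor values, through their share of the RNA, was not tested.

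Clcn5 and Ocrl are X-linked, and the sex of the animals is not given. Of Ddx3y on the Y chromosome and Xist on the X, the newborn kidney carried only Xist above background, the adult kidney only Ddx3y, and the other 3 arrays both, and the part of sex in the values of Clcn5 and Ocrl was not tested.

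The course of each gene over the 5 arrays was last compared with that of every gene above background on all of them, 14231 in number, by the root mean square of the differences in level after each gene was centred on its own mean. Over 5 arrays this is a description, and names given only to gene models were passed over. Proximal tubule genes not above background at E13.5, such as Slc34a1, Slc5a2 and Kap, could not enter the ranking. The gene nearest to Lrp2 was Cubn, at 0.22 log2 units, and Amn was the 11th at 0.50. The nearest to Cubn was Lrp2, with Amn the 9th at 0.58. The other 4 nearest to Lrp2 were Hnf4a, a nuclear receptor of the proximal tubule (0.34), Ass1, an enzyme of arginine synthesis (0.37), Slc18a1 (0.37) and Cideb (0.43). Those nearest to Cubn were, after Lrp2, Cideb (0.40), Ass1 (0.43), Ggt1, the brush border glutamyl transferase (0.44), and Hnf4a (0.44). Amn lay nearest to Hnf4a (0.19), Pdzk1 (0.24), Ass1 (0.26), Asb9 (0.42) and Slc5a11 (0.47).

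The other members kept different company. Dab2 was nearest to Tmem35b (0.11), Rundc3a (0.12), Nudt6 (0.13), Rnf13 (0.13) and Pdxk (0.13), and Clcn5 to Patj (0.08), Gng12 (0.09), Klc4 (0.09), Exoc6 (0.10) and Them4 (0.10). Ocrl was nearest to Rps14 (0.04), Ppp1cb (0.05), Sav1 (0.05), Ctf1 (0.06) and Rps20 (0.07), which stood at ranks 1, 2, 3, 5 and 6 because a gene model at rank 4 was passed over. For a gene with a small span many others lie this near, so such neighbours are less particular: with quantile normalization 5 of 5 were kept for Lrp2 and for Cubn and 4 of 5 for Amn, but 3 for Dab2, 1 for Clcn5 and 0 for Ocrl. From Lrp2, Clcn5 stood at rank 633 (2.22), Dab2 at 1057 (2.43) and Ocrl at 8643 (3.25).

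**Figure D4:**
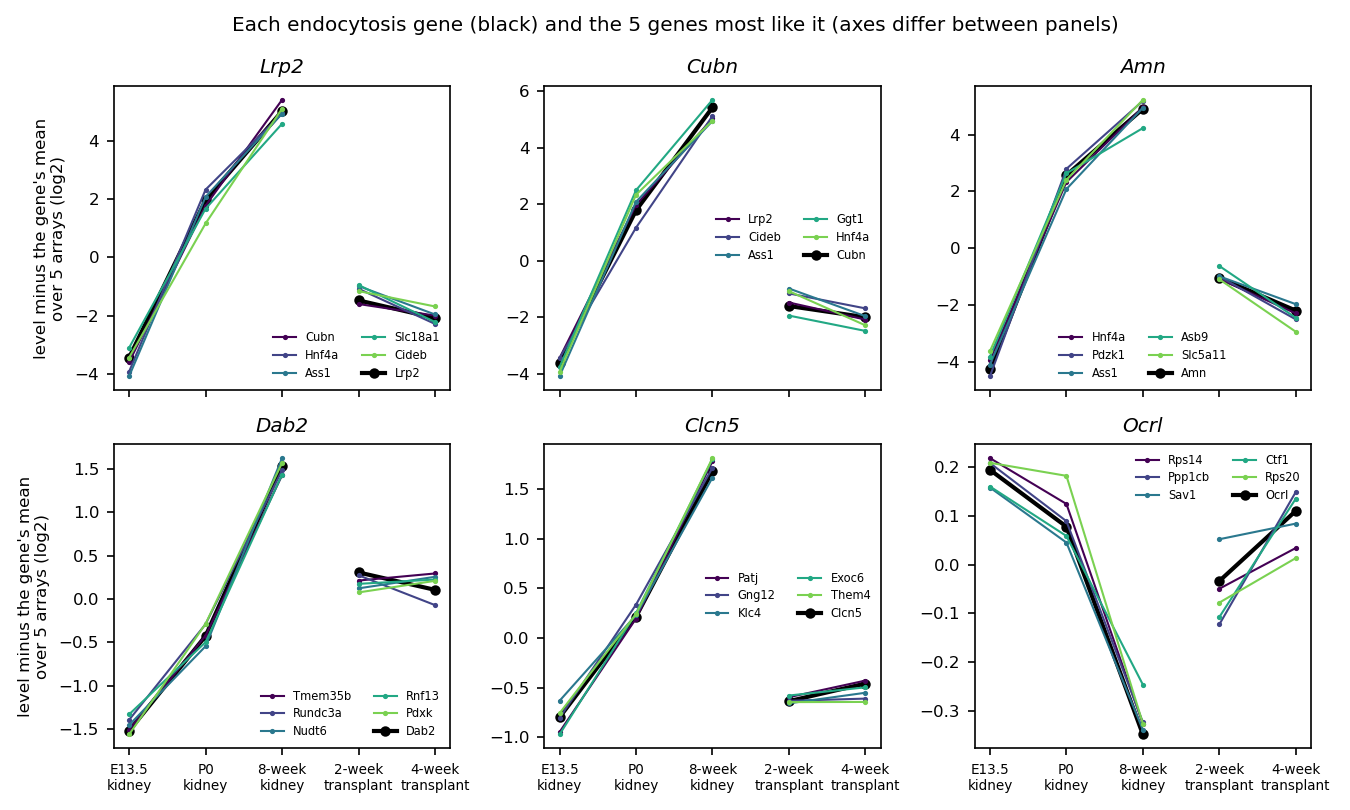
Level of each endocytosis gene (black) and of the 5 genes nearest to it, gene models passed over (colours), each minus its own mean over the 5 arrays (y axis, log2; the scale differs between panels), on the 3 kidneys and 2 transplants. Lrp2, Cubn and Amn share Hnf4a and Ass1 among their nearest genes (Amn to Hnf4a 0.19), and the whole Ocrl panel spans under 1 log2 unit.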

How the data were processed

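RNA of 5 samples was measured on Agilent arrays, scanned and extracted with Agilent Feature Extraction 10.7.3.1, per the submitters' processing notes. Per the file headers, the deposited files hold for every spot a processed intensity, after background subtraction and detrending, with its error and flags. The authors' deposited gene table holds log2 values. Of its values, 99.6% were within 0.01 of unshifted log2 intensities averaged over probes and centred per row, so it carries no percentile shift (18.2% matched with one). The base of its log follows from that match.

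Levels were log2 of the intensity minus log2 of the 75th percentile over 43020 gene spots (1170.2 to 1720.1), without spots flagged as outliers. Replicate spots of a probe had a median SD of 0.0517 to 0.06. The probe with the highest mean level stood for its gene. A gene bright enough on just 1 array of a pair entered with a bound for the dim side, and one on neither was left out. Of 39414 probes, 31781 were named through gene identifiers, 2026 kept the authors' symbol, 19 were named by accession and 5588 stayed unnamed. The list genes Nherf4, Phetal1 and Phetal2 were not matched, and a few list genes are not reported here.

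Counts used 2-fold over 10 pairs of arrays. The members and the 10 gene lists and 9 marker lists were chosen with earlier results of these data known. Named genes were all members and their probes, up to 3 at each end of a list or past 4-fold, markers, and the 5 nearest patterns. Genes named beyond this were chosen after their values were seen. The steps were tested on simulated data with known changes, which checks the computation only. Tools were R 4.3.3 with limma 3.58.1 (alternatives only), Python 3.11.15, pandas 2.3.3 and numpy 2.4.6. Promoters came from RefSeq (GRCm38.p6).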

Additional observations from a re-analysis of the deposited data

How the results depend on the processing

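Each of 8 other settings of background, scaling, source, probe and filter, and 2 other folds, was run for every count and difference of the 6 genes. Of 200 counts under them, 184 stayed within 1.5 times the main count and 16 did not. With normexp, genes at least 2-fold higher became 3 (P0 against E13.5), 1 (2-week transplant against E13.5) and 1 (4-week transplant against E13.5), with 1 lower in each of the last 2. The same correction turned Cubn to -1.11 at 2 weeks and Lrp2, Cubn and Amn to -0.33, -1.37 and -0.93 at 4 weeks, both against E13.5, through a fitted E13.5 background mean of -992. With the mean over probes, the genes higher than E13.5 became 2 (2 weeks) and 1 (4 weeks), as dim probes entered. At 4-fold the counts were 3 (P0 against E13.5), 3 (8 weeks against P0), 2 and 1 (2-week and 4-week transplant against E13.5), and 0 between transplants. At 1.5-fold, 1 gene was higher in the 2-week transplant than P0, and 2 were lower at 4 than at 2 weeks. Between transplants the 1 lower gene became 0 with normexp and with negative control background, where Amn was -0.97 and -0.99 against -1.15. Against P0 or 8 weeks, the lower calls of Lrp2, Cubn and Amn kept their direction under all settings, with Lrp2 at 4 weeks against P0 between -4.37 and -2.85. With scaling on the median, the median over all genes for the 2-week transplant against E13.5 was -0.42, against -0.11 in the main setting. In the authors' table the median over all genes for 8 weeks against P0 was -0.46, against 0.07 in the main setting. No paired analysis was possible because each group has 1 array. The number of arrays limits the precision.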
